A study of Mus musculus with 6 samples.

Results

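The mitochondrial genome of the mouse carries 37 genes, and all 37 were found among the 54532 genes of the deposited count table as the rows placed on chromosome MT. They comprise 13 protein-coding genes, 2 ribosomal RNA (rRNA) genes and 22 transfer RNA (tRNA) genes. The rule that chose them was position alone, and it was set with earlier results of these data known. Expression had been measured by RNA sequencing in 6 libraries from balb/c mice that carried 2208L, a mammary tumour line kept by transplantation. The 3 libraries called CTC held circulating tumour cells propagated from the blood, and the 3 called PT held cells enriched for tumour cells after the primary tumour had been dissociated. The titles call each PT library matched with the CTC library of its number and do not say in what the match consists. The labels give no treatment for either group and name no genotype, age or sex. The labels mention propagation for the CTC cells alone, and so the handling of the cells and their group cannot be told apart.

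Mitochondrial DNA is transcribed from both strands into long precursors. The tRNAs lie between most of the other genes, and cutting them out releases the messenger RNAs (mRNAs) and rRNAs, an arrangement known as tRNA punctuation. The mRNAs encode subunits of the respiratory chain: the mt-Nd genes those of complex I, mt-Cytb that of complex III, the mt-Co genes those of complex IV and the mt-Atp genes those of complex V, the ATP synthase. The rRNAs and tRNAs serve the translation of these mRNAs inside the organelle. The remaining respiratory subunits, and every factor that copies or reads the mitochondrial DNA, are encoded in the nucleus.

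Copies of mitochondrial DNA that were inserted into nuclear chromosomes bear on several of the counts given here, since a read from such a stretch fits both places. A run of copies in the order of the mitochondrial genes lies on the minus strand of chromosome 1 and is annotated as the pseudogenes Gm29216, Gm28661, Gm10925, Gm28437, Gm28438, Gm10222 and Gm28439, which resemble parts or all of mt-Co1, mt-Co2, mt-Atp6, mt-Co3, mt-Nd3, mt-Nd4l and mt-Nd4. Aligned with its mitochondrial gene, Gm10925 had 0 mismatches in 678 bases, Gm28437 0 in 783, Gm28661 0 in 681, Gm28439 0 in 876, Gm10222 0 in 294, Gm28438 1 in 345 and Gm29216 6 in 492. The first 90 bases of mt-Atp6 are shown with those of its copy because no base tells them apart (GENCODE M21 transcripts, GRCm38; MT:7927-8016 on the plus strand and chr1:24614562-24614651 on the minus strand):
mt-Atp6: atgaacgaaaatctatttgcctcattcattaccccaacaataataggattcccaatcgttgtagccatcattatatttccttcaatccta
Gm10925: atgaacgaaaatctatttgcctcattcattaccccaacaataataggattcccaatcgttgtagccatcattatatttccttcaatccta
A copy that can be told apart is shown for contrast. Gm13339 on chromosome 2 differs from mt-Nd2 at 17 of 510 aligned bases, and capitals mark the differing bases in the 90-base window that holds the most of them (MT:4685-4774, plus strand, and chr2:22590201-22590290, minus strand):
mt-Nd2: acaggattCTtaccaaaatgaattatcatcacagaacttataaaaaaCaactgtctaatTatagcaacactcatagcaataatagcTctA
Gm13339: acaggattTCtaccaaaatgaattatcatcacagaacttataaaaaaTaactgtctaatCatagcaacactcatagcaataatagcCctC

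Mitochondrial genes also overlap each other. The longest overlap joins mt-Atp8 and mt-Atp6, which share 43 bases (MT:7927-7969), and the junction is shown with the shared bases in capitals because reads there cannot be given to either gene alone (MT:7907-7989, plus strand):
mt-Atp8 and mt-Atp6 junction: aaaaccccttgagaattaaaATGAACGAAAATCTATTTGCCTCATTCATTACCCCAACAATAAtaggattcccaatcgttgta
mt-Nd4l and mt-Nd4 share 7 bases, and mt-Nd5 and mt-Nd6, which lie on opposite strands, share 14.

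Library totals lay between 23845953 and 27897320 counts, and the 95% Wilson interval of a library's share of mitochondrial mRNA was at most 0.0124 percentage points wide, which covers counting error alone. The 9 epithelial marker genes, among them Krt8 and Epcam, summed to between 2868 and 8460.0 CPM (counts scaled by TMM to a common library size) per library, with the lowest sum in CTC replicate 3. Marker sums of other cells were at most 2.62 CPM for leukocytes, 23.9 for macrophages, 26.8 for neutrophils, 11.1 for endothelium, 19.4 for red cells and platelets and 6.56 for muscle, with 4 of 8 leukocyte, 3 of 8 macrophage, 3 of 8 neutrophil, 3 of 9 red cell and platelet and 1 of 8 muscle genes at 0 in all libraries. Fibroblast genes summed to between 9.29 and 509 CPM in CTC and between 28.5 and 620.3 CPM in PT. Adipocyte genes summed to 349.9 CPM in CTC replicate 3 and to at most 2.44 CPM elsewhere. Genes of the dissociation and stress response summed to between 709 and 769 CPM in CTC and between 688 and 889 CPM in PT. The 4 nuclear-retained RNAs, Malat1 among them, summed to between 167 and 558 CPM in CTC and to between 213 and 323 CPM in PT. No list separated the groups, and their part in the results below was not tested.

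Mitochondrial mRNA made up between 1.07% and 2.47% of a library. The share was 1.73%, 1.13% and 2.47% in CTC replicates 1, 2 and 3 and 1.07%, 1.42% and 2.07% in PT replicates 1, 2 and 3. The groups overlapped: the highest libraries of both groups were those numbered 3, and the lowest were CTC replicate 2 and PT replicate 1. The means were 1.78% ± 0.667 in CTC and 1.52% ± 0.507 in PT (SD, n = 3 each; two-sided exact permutation test, p = 0.6, where 0.1 is the smallest p that 3 against 3 libraries can give). CTC was higher in 2 of the 3 matched pairs, and without CTC replicate 3 the difference of 0.256 percentage points became -0.0886. CTC replicate 3 was also the library with the adipocyte sum above. It had the lowest epithelial sum of all libraries and the highest fibroblast sum of the CTC libraries. The part of these differences in the mRNA share was not tested. In such bulk samples fewer cells of a type and less RNA per cell cannot be told apart.

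Ribosomal RNA of the mitochondrion was far scarcer in the counts, and it did not follow the mRNAs from library to library. Its share was 0.125%, 0.0986% and 0.0499% in CTC replicates 1, 2 and 3 and 0.0530%, 0.133% and 0.0460% in PT. Per 1000 counts of mitochondrial mRNA there were 72.3, 86.9 and 20.2 counts of rRNA in CTC and 49.6, 93.7 and 22.2 in PT. Both libraries numbered 3 were thus the lowest of their group and both numbered 2 the highest, so the matched libraries ranked alike while the groups overlapped (59.8 ± 35.0 against 55.2 ± 36.1, SD, n = 3 each; exact permutation test, p = 1). The rRNA to protein-coding ratio had the opposite direction when the library CTC 1, CTC 2 or PT 3 was left out (lowest -11.8 counts per 1000), and the mt rRNA share of library when CTC 1 or PT 3 was left out (lowest -0.0032 percentage points). The kit was one for mRNA, per the labels, so rRNA counts here are not the cells' content of rRNA.

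**Figure D1:**
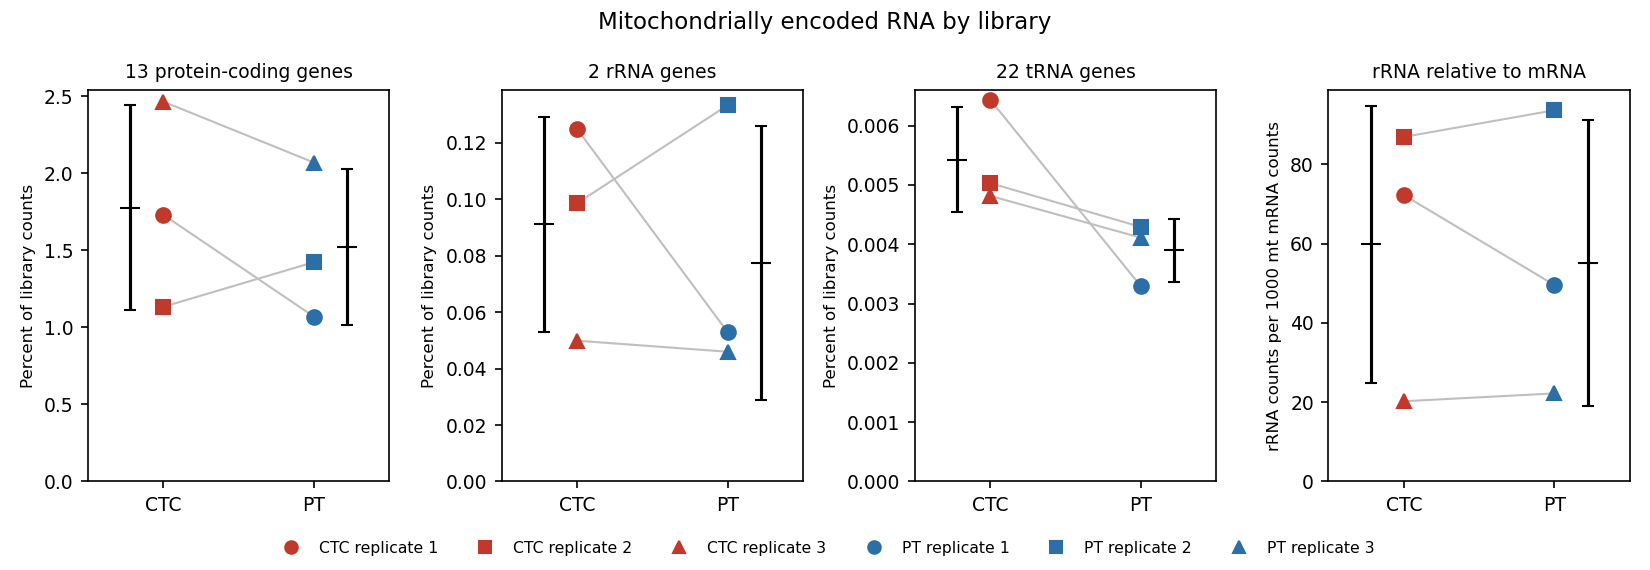
Percent of library counts in the 13 protein-coding, 2 rRNA and 22 tRNA genes of the mitochondrial genome, and rRNA counts per 1000 mitochondrial mRNA counts, in each CTC (red) and PT (blue) library; marker shape gives the replicate number, grey lines join matched libraries, and black bars show the mean ± SD of 3 libraries. The groups overlap for mRNA and rRNA, the tRNA shares of CTC (0.00481% to 0.00643%) all lie above those of PT (0.00329% to 0.00429%), and replicate 3 of both groups is lowest for rRNA relative to mRNA.

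The 2 rRNA genes differed in how they varied. mt-Rnr1, the RNA of the small mitochondrial ribosome subunit (ENSMUSG00000064337, MT:70-1024), was at 610.4, 416 and 152 CPM in the CTC libraries numbered 1, 2 and 3 against 223, 396 and 157 in the PT libraries. mt-Rnr2, the RNA of the large subunit (ENSMUSG00000064339, MT:1094-2675), was at 626, 589.8 and 315 CPM in the CTC libraries against 332, 967 and 298 in the PT libraries. mt-Rnr1 was thus highest in CTC replicate 1 and mt-Rnr2 in PT replicate 2, and both were lowest in a library numbered 3. The log2 fold changes, CTC minus PT, were 0.60 (SE 0.54) and -0.06 (SE 0.51), with adjusted p-values of 0.792 and 0.982 (edgeR quasi-likelihood test, Benjamini-Hochberg over 13874 genes). The log2 fold change of mt-Rnr1 was 0.14 with the library CTC 1 left out, 0.98 with CTC 3, 1.02 with PT 2 and 0.34 with PT 3 left out.

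Not one of the 13 protein-coding genes separated the groups. In the edgeR test 0% of the 13874 genes were called at an adjusted p under 0.05, and 0 of the 27 mitochondrial genes that passed the filter on low counts were among them. At an unadjusted p under 0.05 there were 919 genes, of which 2 were mitochondrial, the tRNA genes mt-Tl2 and mt-Ts2. DESeq2 called 0.524% of genes and edgeR without the filter 0.728%, again with 0 mitochondrial genes, and limma-voom called 0 genes, with 920 at an unadjusted p under 0.05. Of the 13 protein-coding genes, 9 had a positive and 4 a negative log2 fold change, with a median of 0.06, beside a median of 0.05 over all genes tested. This median lay between 0.03 and 0.13 under every other scaling, filter, design and tool tried, and between -0.22 (without CTC replicate 3) and 0.39 (without PT replicate 3) when libraries were left out.

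Complex IV and complex I supplied most mitochondrial mRNA counts. mt-Co1, the catalytic subunit of complex IV (ENSMUSG00000064351, MT:5328-6872), was at 8050.5, 6226 and 11445 CPM in the CTC libraries numbered 1, 2 and 3 against 4576, 8166 and 10719 in the PT libraries. It alone held between 40.9% and 56.1% of all mitochondrial mRNA counts, and its libraries numbered 3 were the highest of each group. The log2 fold change of mt-Co1 came to 0.13 with an SE of 0.41 (edgeR, adjusted p = 0.94). The other core subunits of complex IV overlapped too. mt-Co2 averaged 91.7 ± 21.5 CPM in the CTC group against 88.1 ± 4.99 in the PT group (SD, n = 3 each), and mt-Co3 lay at 68.5, 86.8 and 93.6 CPM against 103, 143 and 69.4. Together the mt-Co genes made up 51.2% ± 3.62 of mitochondrial mRNA counts in CTC and 51.1% ± 7.76 in PT (exact permutation test, p = 1).

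The 7 mt-Nd genes encode membrane subunits of complex I. mt-Nd1 (ENSMUSG00000064341, MT:2751-3707) varied least among the abundant ones, at 3493, 2260.3 and 3259 CPM in the CTC libraries against 2072, 2270.1 and 2778 in the PT libraries. Its highest library was 1.69 times its lowest, and its log2 fold change was 0.34 (SE 0.30; edgeR, adjusted p = 0.791). mt-Nd4 (ENSMUSG00000064363, MT:10167-11544) spread by 4.55 times, at 808, 337 and 1533 CPM in the CTC libraries against 577, 411 and 1459 in the PT libraries. Both libraries numbered 3 were the highest of their group and both numbered 2 the lowest. mt-Nd5 (ENSMUSG00000064367, MT:11742-13565) had the same order in both groups, with 875, 359 and 1057 CPM in the CTC libraries against 566, 440.0 and 1195 in the PT libraries. mt-Nd2 was at 1328, 980.3 and 2201 CPM in the CTC libraries against 1344, 954 and 1650.0 in the PT libraries, again highest in the libraries numbered 3. mt-Nd3 and mt-Nd4l were low, at between 14.6 and 27.1 CPM and between 2.03 and 10.2 CPM. The complex I share of mitochondrial mRNA was 36.8% ± 2.29 in CTC and 35.8% ± 6.64 in PT (SD, n = 3 each; exact permutation test, p = 1), and it ran from 29.0% in PT replicate 2 to 42.2% in PT replicate 1.

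mt-Nd6 (ENSMUSG00000064368, MT:13552-14070) is the mRNA gene that lies on the opposite strand from the other 12. It was at 206, 75.6 and 231 CPM in the CTC libraries against 147, 114 and 286 in the PT libraries, with a log2 fold change of -0.09 (SE 0.50; edgeR, adjusted p = 0.968). Per 1000 counts of the other 12 protein-coding genes there were 12.2, 6.58 and 10.1 counts of mt-Nd6 in CTC and 13.3, 7.86 and 14.2 in PT, which overlapped (9.61 ± 2.82 against 11.8 ± 3.41, SD, n = 3 each; exact permutation test, p = 0.5). Against its neighbour mt-Nd5 the level was far steadier. There were 235, 211 and 218 mt-Nd6 counts per 1000 mt-Nd5 counts in CTC and 259.8, 258 and 239 in PT, a spread of 1.23 times in all, with every CTC library just below every PT library. This ratio was chosen after its values were seen and carries no test. In human cells the mt-Nd5 messenger is known to run on across the region opposite mt-Nd6, and no source used here says whether reads were counted by strand, so reads of the opposite strand cannot be told apart from mt-Nd6.

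mt-Cytb (ENSMUSG00000064370, MT:14145-15288), the mitochondrially encoded subunit of complex III, was at 2015, 963 and 2931 CPM in the CTC libraries against 1403, 1669 and 2109 in the PT libraries. CTC held both the lowest and the highest library, and the log2 fold change was 0.19 (SE 0.42; edgeR, adjusted p = 0.915). Of the complex V genes, mt-Atp6 (ENSMUSG00000064357, MT:7927-8607), the proton channel subunit, was at 146, 181 and 177 CPM in the CTC libraries against 299.8, 275 and 91.3 in the PT libraries. PT replicate 3 stood below every CTC library and the other PT libraries above, and the log2 fold change was -0.40 (SE 0.43; edgeR, adjusted p = 0.827). The log2 fold change of mt-Atp6 was -0.11 with the library PT 1 left out, -0.24 with PT 2 and -0.77 with PT 3 left out. mt-Atp8 (ENSMUSG00000064356, MT:7766-7969), an accessory membrane subunit, had 5, 7 and 17 counts in the CTC libraries against 36, 23 and 4 in the PT libraries. The largest negative log2 fold change of the 13, -1.15 (SE 0.89; edgeR, adjusted p = 0.776), rested on these few counts.

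Levels per length set the genes apart by far more than the groups did. Per kilobase of gene, mt-Co1 was highest with a mean over the 6 libraries of 5306 TMM-scaled CPM, followed by mt-Nd1 with 2809, mt-Cytb with 1616 and mt-Nd2 with 1358. mt-Nd4, mt-Nd5 and mt-Nd6 came next with 619.7, 411 and 339.8, in ranges that overlapped. mt-Atp6 had 286, mt-Co2 131, mt-Co3 119.9, mt-Nd3 62.7, mt-Nd4l 18.0 and mt-Atp8 2.99. Such values are counts assigned to genes and are not read as levels of separate transcripts. mt-Atp8 and mt-Nd4l each overlap the gene after them, mt-Atp6 and mt-Nd4. mt-Co1 and mt-Co2, which encode core subunits of the same complex, did not overlap in any library: the lowest mt-Co1 value was 2962 and the highest mt-Co2 value 156.

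**Figure D2:**
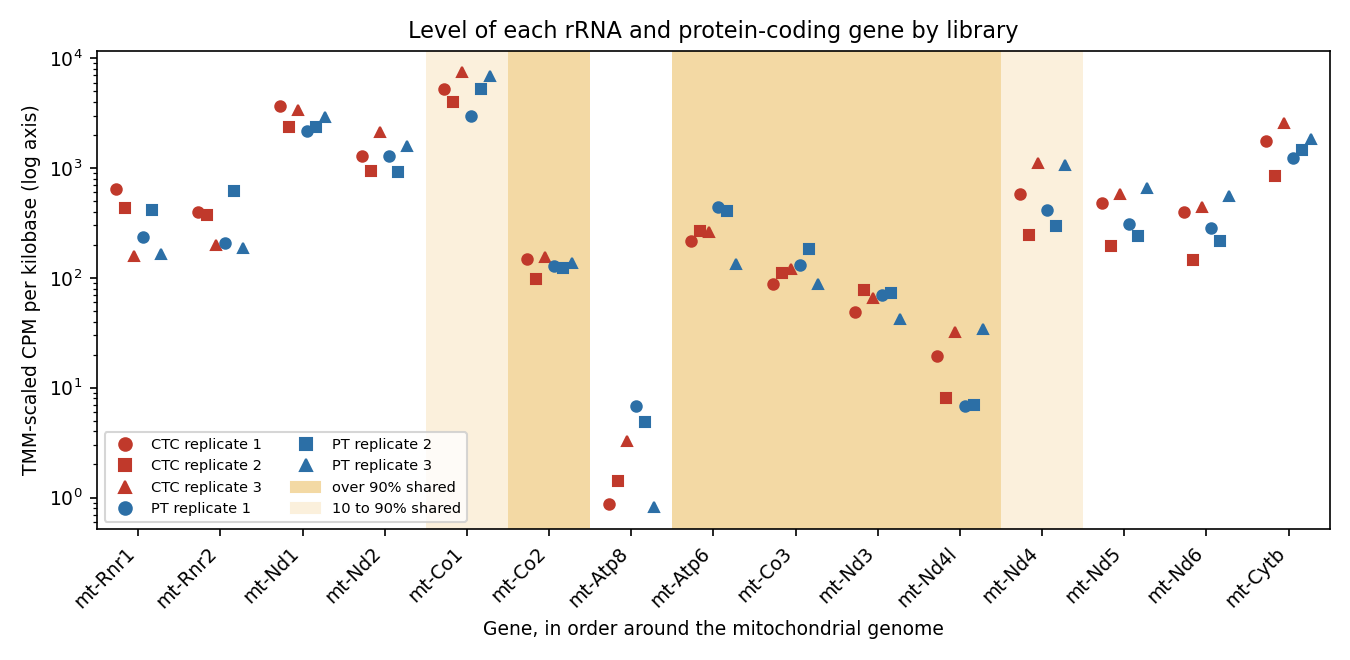
Level of each mitochondrial rRNA and protein-coding gene, in order around the genome, as TMM-scaled CPM per kilobase on a log axis, for 3 CTC (red) and 3 PT (blue) libraries; shading marks genes whose 100-base windows also occur in nuclear transcripts (dark, over 90%; light, 10 to 90%). From mt-Co2 to mt-Nd4l no gene has a mean above 286, mt-Co1, mt-Nd1, mt-Cytb and mt-Nd2 all have means of at least 1358, and CTC and PT points overlap at each gene.

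The 5 genes whose sequence is nearly all shared with nuclear transcripts were among the 6 lowest per length. All windows of 100 bases in each gene were looked up in the nuclear transcripts of GENCODE M21, on both strands. In mt-Co2, mt-Co3, mt-Atp6, mt-Nd3 and mt-Nd4l between 97.6% and 99.9% of windows also occurred in a nuclear transcript, and these 5 genes lay between 18.0 and 286 TMM-scaled CPM per kilobase. In mt-Co1 the share was 30.8% and in mt-Nd4 60.8%. It was 3.19% in mt-Nd2 and 0 in mt-Nd1, mt-Nd5, mt-Nd6, mt-Cytb and both rRNA genes. In windows of 50 bases the share was 51.1% in mt-Co1, 8.19% in mt-Nd2, 7.61% in mt-Nd5 and 1.04% in mt-Rnr2. It stayed at 0 in mt-Nd1, mt-Nd6, mt-Cytb and mt-Rnr1. mt-Atp8 also had 0 with either window, at the lowest level of all. It has 204 bases, of which 43 are shared with mt-Atp6, and what sets its level was not tested. By position it lies inside the copied stretch: 233 bases separate the part of mt-Co2 that is copied from mt-Atp6, and 233 bases separate Gm28661 from Gm10925, where no gene is annotated. Sequence between annotated transcripts was not analysed here, so 0 does not mean that mt-Atp8 lacks a copy.

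**Figure D3:**
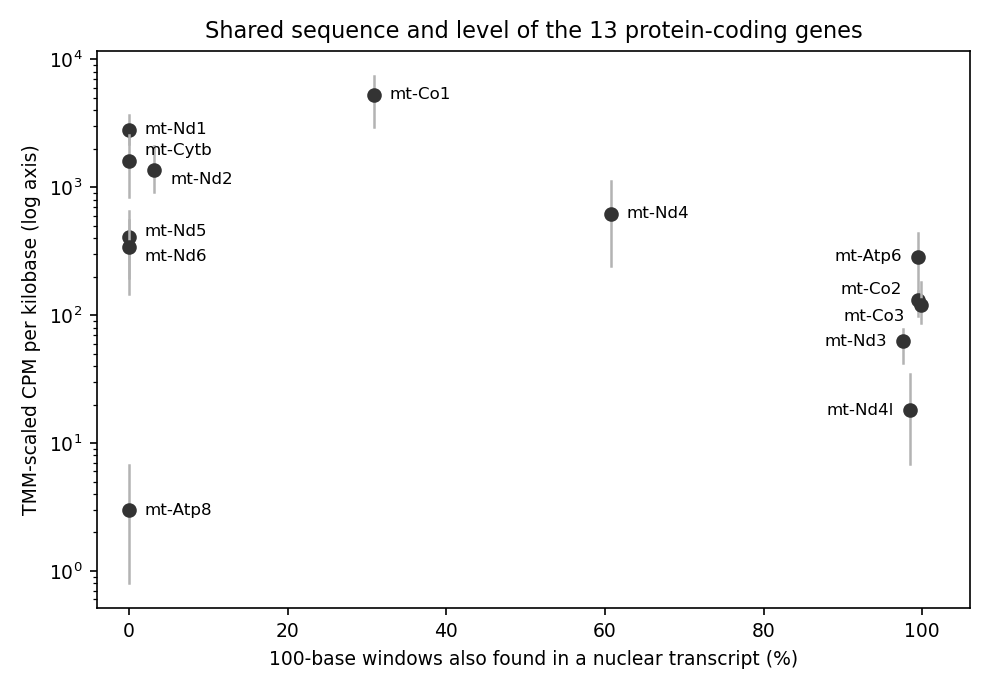
Share of the 100-base windows of each protein-coding gene that also occur in a nuclear transcript (x axis, percent) against its level in TMM-scaled CPM per kilobase (y axis, log); points are means of 6 libraries and bars run from the lowest to the highest library. The 5 genes over 97% sit at or below 286, and of the genes under 10% all but mt-Atp8 have means of at least 339.8.

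For the 5 genes copied nearly whole, the pseudogenes held counts of the same order as the genes. Gm10925 was at 109.9, 203 and 149 CPM in the CTC libraries against 352, 364 and 91.0 in the PT libraries, close to mt-Atp6 in every library, with between 755 and 1329 mt-Atp6 counts per 1000 Gm10925 counts. Of the counts of a gene and its copies together, the mitochondrial gene held between 48.5% and 65.6% for mt-Co2, 43.0% and 57.1% for mt-Atp6, 51.9% and 55.0% for mt-Co3, 41.6% and 59.0% for mt-Nd3 and 38.7% and 55.2% for mt-Nd4l. For mt-Co1 and mt-Nd4, which are copied in part, it held at least 99.2% and 97.7%. With the copies added, mt-Atp6 had 597 TMM-scaled CPM per kilobase beside 632 for mt-Nd4, while mt-Co2 had 224, mt-Co3 227, mt-Nd3 116 and mt-Nd4l 34.7. How reads that fit several places were counted is not given in the sources used here, and the part of the copies in these levels was not tested. With the copies added, 0 of the 27 mitochondrial genes were called by edgeR, and the log2 fold change of mt-Co2 turned from 0.06 to -0.11, while that of mt-Atp6 moved from -0.40 to -0.61 (SE 0.47).

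**Figure D4:**
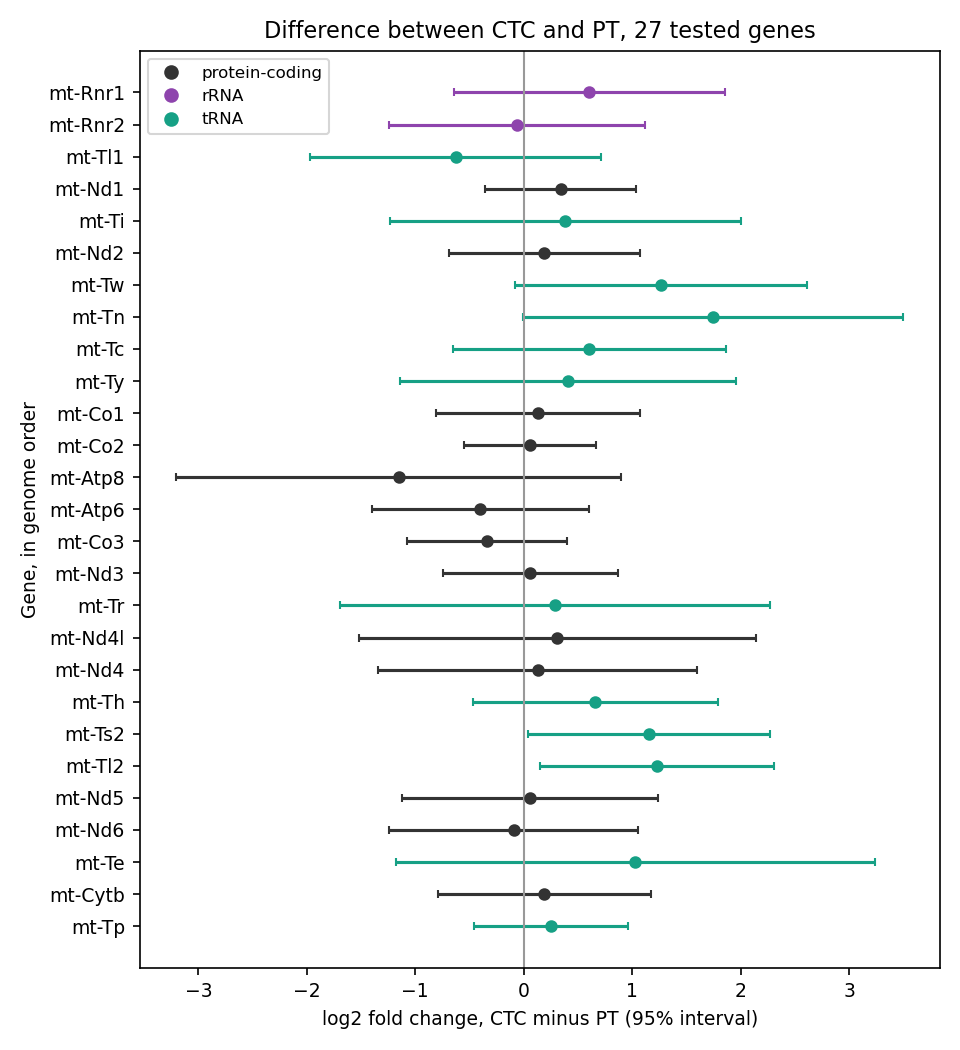
Log2 fold change, CTC minus PT, with its 95% interval from edgeR, for the 27 mitochondrial genes that passed the filter on low counts, in genome order (black, protein-coding; purple, rRNA; green, tRNA). The intervals of all 13 protein-coding genes and both rRNAs span 0, and those of mt-Ts2 and mt-Tl2 do not before adjustment over genes.

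The tRNA genes gave few counts, 7084 over all 22 genes and 6 libraries. A mature tRNA is shorter than the inserts that such kits usually keep, and these counts are not read as levels of mature tRNA. The genes that carried most counts are shown, then 2 with 0 counts in every library, each with its anticodon in capitals (GENCODE M21, GRCm38; mt-Tp on the minus strand at MT:15356-15422, and on the plus strand mt-Tl1 at MT:2676-2750, mt-Tl2 at MT:11671-11741, mt-Th at MT:11546-11612, mt-Tf at MT:1-68 and mt-Td at MT:6942-7011):
mt-Tp: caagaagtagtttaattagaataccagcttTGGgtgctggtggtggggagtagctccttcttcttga
mt-Tl1: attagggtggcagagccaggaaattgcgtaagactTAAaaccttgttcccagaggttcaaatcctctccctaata
mt-Tl2: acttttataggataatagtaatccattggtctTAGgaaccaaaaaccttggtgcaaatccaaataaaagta
mt-Th: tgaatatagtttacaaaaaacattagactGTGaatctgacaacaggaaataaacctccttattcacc
mt-Tf: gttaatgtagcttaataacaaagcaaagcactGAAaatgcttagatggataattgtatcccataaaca
mt-Td: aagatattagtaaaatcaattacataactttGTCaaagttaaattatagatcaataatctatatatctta

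The tRNA total was higher in every CTC library than in every PT library. It was 0.00643%, 0.00503% and 0.00481% of counts in CTC replicates 1, 2 and 3 and 0.00329%, 0.00429% and 0.00411% in PT, higher in CTC in 3 of 3 matched pairs. The means were 0.00543% ± 0.00088 and 0.0039% ± 0.000534 (SD, n = 3 each; exact permutation test, p = 0.1, the smallest this design allows; adjusted over the 8 shares and ratios tested, 0.8). Against mitochondrial mRNA the tRNA counts did not separate the groups, with 3.72, 4.43 and 1.95 per 1000 mRNA counts in CTC and 3.08, 3.01 and 1.99 in PT (exact permutation test, p = 0.5). Both libraries numbered 3 were again the lowest.

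mt-Tp, the proline tRNA, alone held 39.7% of all tRNA counts. It lies on the opposite strand from most tRNA genes, beside the control region, and had 680, 490 and 405 counts in the CTC libraries against 403, 412 and 425 in the PT libraries. PT was nearly even, CTC replicates 1 and 2 lay above every PT library and CTC replicate 3 lay within the PT range. The log2 fold change was 0.25 (SE 0.31; edgeR, adjusted p = 0.836). mt-Tl1, the leucine tRNA between mt-Rnr2 and mt-Nd1, had 139, 76 and 194 counts in the CTC libraries against 103, 323 and 155 in the PT libraries, and was the sole tRNA of the 12 tested with a negative log2 fold change (-0.63, SE 0.58; edgeR, adjusted p = 0.796).

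The other leucine tRNA gene and a neighbour separated the groups without passing the adjusted test. mt-Tl2 had 324, 143 and 169 counts in the CTC libraries against 115, 56 and 83 in the PT libraries, so that every CTC library lay above every PT library (log2 fold change 1.23, SE 0.47, 95% interval 0.15 to 2.31; edgeR, adjusted p = 0.726). mt-Ts2, a serine tRNA that overlaps mt-Tl2 by 1 base, had 114, 88 and 102 counts in the CTC libraries against 55, 25 and 50 in the PT libraries, again without overlap (log2 fold change 1.15, SE 0.48; edgeR, adjusted p = 0.726). mt-Th, the histidine tRNA next to it, had 147, 91 and 64 counts in the CTC libraries against 50, 68 and 59 in the PT libraries, which overlapped. These genes follow each other between mt-Nd4 and mt-Nd5, which overlapped between the groups. mt-Tw, the tryptophan tRNA after mt-Nd2, had 33, 29 and 27 counts in the CTC libraries against 14, 6 and 15 in the PT libraries, without overlap (log2 fold change 1.27, SE 0.58; edgeR, adjusted p = 0.726). Every CTC library was above every PT library for 3 of the 27 tested mitochondrial genes, or 11.1%, and below it for 0, beside 5.95% above and 6.16% below over all genes tested. The filter on low counts could favour genes high in either group, CTC or PT, since passing in 3 libraries is enough.

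**Figure D5:**
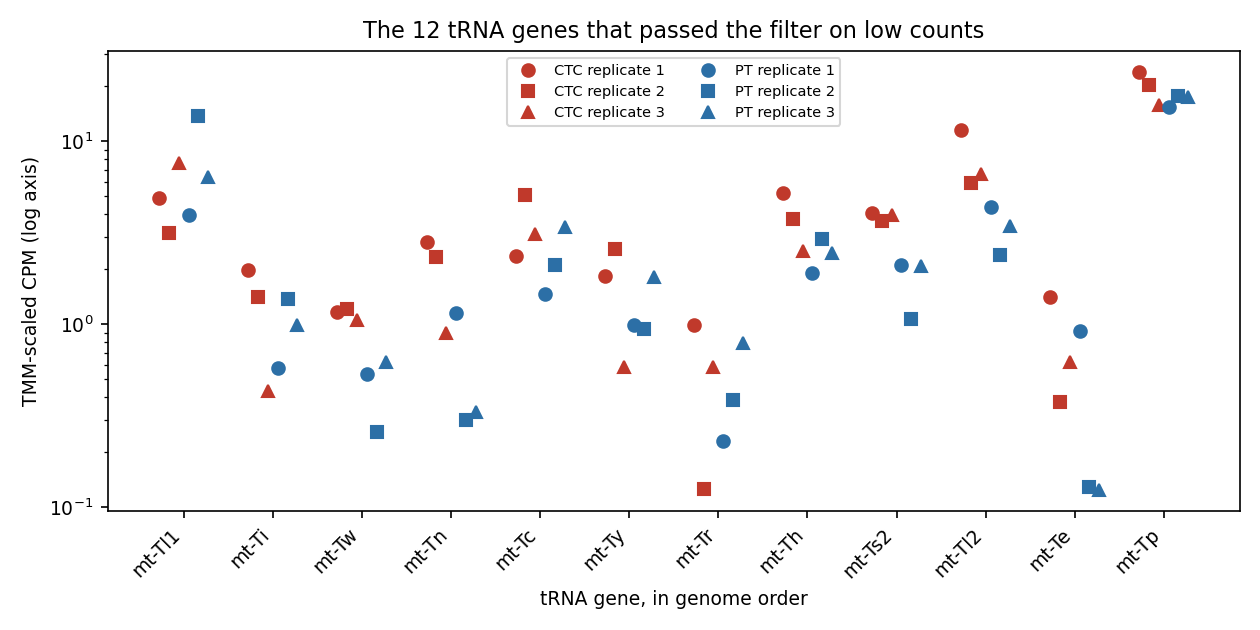
TMM-scaled CPM (log axis) of the 12 tRNA genes that passed the filter on low counts, in genome order, in 3 CTC (red) and 3 PT (blue) libraries with the replicate number as marker shape. CTC lies above PT without overlap for mt-Tw, mt-Ts2 and mt-Tl2, and mt-Tp is the highest tRNA in every library.

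The remaining tRNAs varied without separating the groups. mt-Tc, the cysteine tRNA, had 67, 122 and 80 counts in the CTC libraries against 38, 49 and 82 in the PT libraries, mt-Ty, the tyrosine tRNA, 52, 62 and 15 against 26, 22 and 44, and mt-Ti, the isoleucine tRNA, 56, 34 and 11 against 15, 32 and 24. mt-Tn, the asparagine tRNA, had 79, 56 and 23 counts in the CTC libraries against 30, 7 and 8 in the PT libraries, and CTC replicate 3 lay below PT replicate 1. Its log2 fold change of 1.75 (SE 0.76; edgeR, adjusted p = 0.726) was the largest positive one of the 27 tested mitochondrial genes. mt-Te and mt-Tr, for glutamate and arginine, passed the filter with at most 40 and 28 counts. The 10 tRNAs that did not pass it had at most 16 counts in any library, and 3 counts, the limit that a count of 0 allows, corresponded to between 0.106 and 0.129 TMM-scaled CPM. The 5 tRNA genes inside the stretch that is copied on chromosome 1 (mt-Ts1, mt-Td, mt-Tk, mt-Tg and mt-Tr) had 85 counts in all, 80 of them in mt-Tr, while the 17 outside had 6999. Of the genes outside it, mt-Tf, mt-Ta and mt-Tv had 0, 6 and 10. The 5 genes were placed in the stretch by position alone, as sequence between annotated transcripts was not analysed. The part of the copy in these counts was not tested.

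In the edgeR test 0 of the 13874 genes were called, so 0 called in each nuclear list follows from that. The first list held nuclear genes for the transcription of mitochondrial DNA. Of 11 such genes, 8 had a positive and 3 a negative log2 fold change, with a median of 0.14 and 0 called by edgeR. Polrmt, the mitochondrial RNA polymerase, was at 41.0 ± 12.7 CPM in the CTC group against 49.7 ± 17.4 in the PT group (SD, n = 3 each). Tfam, which packs the DNA and opens the promoters, was at 51.2, 49.2 and 46.8 CPM in the CTC libraries against 27.7, 65.5 and 40.2 in the PT libraries, even in CTC and spread in PT around it. Tfb2m, the promoter-melting factor, had the same form, at 25.2 ± 1.60 against 20.5 ± 13.8 CPM, and the elongation factor Tefm was at 13.1 ± 1.36 against 9.98 ± 3.14 CPM. Mterf3, described as a repressor of mitochondrial transcription, was at 26.7, 15.9 and 15.6 CPM in the CTC libraries against 9.92, 12.6 and 13.6 in the PT libraries, without overlap (log2 fold change 0.69, SE 0.35; edgeR, adjusted p = 0.726). Mterf1b and Mrpl12 overlapped, at 1.15 ± 0.748 against 0.489 ± 0.14 CPM and 141 ± 55.0 against 187 ± 53.4 CPM. Mterf3 was the 1 of the 11 genes with every CTC library above every PT library, and 0 had the opposite order. Over all genes tested the shares were 5.95% and 6.16%.

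Of 22 measured genes that process or stabilise mitochondrial RNA, 14 had a positive and 8 a negative log2 fold change, with a median of 0.16 and 0 called. Lrpprc, whose protein holds mitochondrial mRNAs stable, was at 128, 93.5 and 112 CPM in the CTC libraries against 49.6, 47.2 and 129 in the PT libraries, so that PT replicate 3 stood with CTC. Its partner gene Slirp was at 3.59 ± 0.135 CPM in the CTC group against 5.14 ± 1.40 in the PT group, with 3.52 CPM in PT replicate 3. Elac2 and Trmt10c, which act where tRNA ends are cut, were at 81.5 ± 29.0 against 91.8 ± 22.8 CPM and 39.1 ± 15.8 against 25.8 ± 7.82 CPM. Fastkd3 and Fastk, of a family that acts on these RNAs, were at 23.3 ± 7.23 against 13.3 ± 3.37 and 85.8 ± 17.3 against 128 ± 34.4 CPM, with overlap. Every CTC library was above every PT library for 1 of the 22 genes and below for 0, beside 5.95% and 6.16% of all genes tested.

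Of 15 genes that replicate or maintain mitochondrial DNA, 10 had a positive and 5 a negative log2 fold change, with a median of 0.26 and 0 called. Polg, the DNA polymerase, was at 90.8 ± 17.5 CPM in the CTC group against 119.7 ± 26.9 in the PT group, its accessory subunit Polg2 at 7.32 ± 1.13 against 4.39 ± 1.62 CPM, and the helicase Twnk at 64.6 ± 13.6 against 54.1 ± 13.3 CPM. The single-strand binding protein gene Ssbp1 was at 35.4 ± 2.29 CPM in the PT group (SD, n = 3), with CTC replicate 3 above every PT library at 42.6 CPM, CTC replicate 1 below them at 17.5 CPM and CTC replicate 2 lower still. Rrm2b, a ribonucleotide reductase subunit, was at 19.1, 6.62 and 7.93 CPM in the CTC libraries against 5.32, 5.62 and 5.43 in the PT libraries, and Mpv17, an inner membrane protein needed to keep the DNA, at 22.5 ± 2.11 against 15.6 ± 2.80 CPM. Their log2 fold changes were 1.04 (SE 0.49) and 0.53 (SE 0.30; edgeR, adjusted p = 0.726 and 0.727), and the log2 fold change of Rrm2b was 0.41 without CTC replicate 1. They were the 2 of the 15 genes with every CTC library above every PT library, and 0 had the opposite order, beside 5.95% and 6.16% of all genes tested.

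The regulators of mitochondrial biogenesis had 5 positive and 7 negative log2 fold changes among 12 tested, with a median of -0.17 and 0 called. Ppargc1a, a coactivator of nuclear genes for mitochondrial proteins, was at 2.16, 2.58 and 8.20 CPM in the CTC libraries against 6.09, 21.9 and 12.4 in the PT libraries, a log2 fold change of -1.64 (SE 0.68; edgeR, adjusted p = 0.726). Its partner Esrra, an orphan nuclear receptor, was at 68.6, 96.5 and 90.1 CPM in the CTC libraries against 118, 168 and 126 in the PT libraries, lower in CTC in every library (log2 fold change -0.69, SE 0.27; edgeR, adjusted p = 0.726). Ppargc1b was at 1.12 ± 1.22 against 2.56 ± 1.15 CPM, Nrf1 at 59.8 ± 11.2 against 71.6 ± 6.01 CPM and Myc at 123 ± 54.6 against 138 ± 13.5 CPM. Sirt1, a deacetylase, was at 19.1 ± 5.88 against 11.2 ± 2.76 CPM, higher in every CTC library than in every PT library. Of the 12 genes, 2 had every CTC library above every PT library and 2 the opposite order, beside 5.95% and 6.16% of all genes tested.

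The nuclear-encoded partners of the mitochondrial subunits had 22 negative and 3 positive log2 fold changes among 25, with a median of -0.26 and 0 called, while the 13 mitochondrial protein-coding genes had a median of 0.06. The difference between these medians was not tested. Uqcrc1, of complex III, was at 237 ± 64.3 CPM in the CTC group against 447 ± 179.7 in the PT group and Atp5c1, of complex V, at 305 ± 115 against 507 ± 115 CPM, each without overlap. In the same libraries mt-Cytb and mt-Atp6 overlapped between the groups. CTC lay below PT in all libraries for 5 of the 25 and above for 0, beside 6.16% and 5.95% over all genes tested.

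The enzymes that charge mitochondrial tRNAs with amino acids had 13 negative and 7 positive log2 fold changes among 20, with a median of -0.20 and 0 called. Of the 12 tested tRNA genes 11 had positive ones, but those counts are not read as levels of mature tRNA. The contrast between enzymes and tRNA genes was not tested. Cars2, for cysteine, was at 21.7, 40.8 and 49.3 CPM in the CTC libraries against 91.6, 67.0 and 94.1 in the PT libraries (log2 fold change -1.18, SE 0.35; edgeR, adjusted p = 0.726). Sars2, for serine, was at 18.2 ± 3.12 against 31.1 ± 7.18 CPM and Ears2, for glutamate, at 12.2 ± 2.56 against 18.9 ± 0.359 CPM. Lars2, for leucine, was at 193 ± 21.2 against 243 ± 11.2 CPM. These were the 4 of the 20 synthetase genes with every CTC library below every PT library, and 0 of the 20 had the opposite order, beside 6.16% and 5.95% of all genes tested.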

How the data were processed

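For 6 libraries, whole-number counts by gene were deposited in 1 table. The submitters' processing notes name HISAT2, GRCm38 and mm10; which counter and annotation release were used, whether strand was used and how reads that fit several places were treated is not given in the sources used here. Per the labels' protocols, an mRNA library kit was used on total RNA.

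Counts were tested with edgeR 4.0.16 (R 4.3.3; quasi-likelihood, TMM scaling, filterByExpr, no replicate block) on 13874 genes, with Benjamini-Hochberg adjustment and a threshold of 0.05; SEs came from the F statistic, and CPM are TMM-scaled. DESeq2 1.42.0 and limma 3.58.1 were alternatives. The edgeR fit was tested on simulated data with a fixed spread, which does not show what differences could be found in these libraries. Shares and ratios used two-sided exact permutation tests. Any pair of libraries differed by a chi-square of at least 90.4 per degree of freedom, and each was kept as 1 sample. Windows of 50 and 100 bases were matched to GENCODE M21 transcripts.

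The titles match same-numbered libraries; deviations of these pairs from their group means correlated at -0.0150, 0.157 and 0.298 over tested genes and at -0.724, 0.891 and 0.467 over the mitochondrial mRNAs. P-values measure the spread between these libraries. Members, gene lists and naming rule (all mRNAs and rRNAs, tRNAs with at least 10 counts in every library, the highest and lowest tRNA, up to 3 genes of smallest p and fixed genes per nuclear list) were chosen with earlier results of these data known; 1 gene that the rule names is not reported here. mt-Tn, mt-Tw and other low tRNAs were named after their values were seen.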

Additional observations from a re-analysis of the deposited data

How the results depend on the processing

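No mitochondrial gene was called under any alternative. Over all genes, edgeR called 0 with the replicate block and with other scalings, filters, left-out libraries or pairs, except that without a filter it called 121 higher and 78 lower in CTC; DESeq2 called 40 and 47, and 119 and 134 with the replicate block. The replicate block changed no other call. Against -0.06, the log2 fold change of mt-Rnr2 was 0.0935 with the replicate block, 0.0677 in DESeq2 with the replicate block and 0.0926 in limma-voom; the log2 fold change of mt-Tr was -0.0112 in DESeq2 with the block, and that of mt-Co2 -0.11 with its nuclear copies added, an alternative chosen after seeing the data. The complex IV share differed by 0.108 percentage points and by -0.151 when taken per kilobase. The cause of these turns was not tested. When a library or pair was left out, log2 fold changes ran from -0.14 to 0.43 for mt-Co1, -0.067 to 0.23 for mt-Co2, -0.22 to 0.51 for mt-Cytb, -0.19 to 0.41 for mt-Nd2, -0.17 to 0.34 for mt-Nd3, -0.51 to 0.85 for mt-Nd4, -0.22 to 1.53 for mt-Nd4l, -0.25 to 0.60 for mt-Nd5, -0.38 to 0.39 for mt-Nd6, -0.82 to -0.0088 for mt-Atp6, -2.32 to -0.24 for mt-Atp8, 0.059 to 1.02 for mt-Rnr1, -0.46 to 0.68 for mt-Rnr2, -0.34 to 0.80 for mt-Ti, -1.14 to 0.26 for mt-Tl1, -0.69 to 0.88 for mt-Tr and -0.23 to 1.18 for mt-Ty. For nuclear genes they ran from 0.41 to 1.31 for Rrm2b, 0.29 to 0.92 for Mterf3, -2.56 to -0.84 for Ppargc1a, -0.69 to 0.20 for Elac2, -0.43 to 0.16 for Myc, -0.63 to 0.18 for Polrmt, -0.12 to 0.52 for Tfam and -0.041 to 1.04 for Tfb2m. Differences ran from -0.0886 to 0.577 percentage points for the mRNA share, -0.0032 to 0.0417 for the rRNA share, 0.00103 to 0.00184 for the tRNA share, -4.18 to 3.38 for complex IV and -2.40 to 4.24 for complex I, and from -11.8 to 24.5 counts per 1000 for rRNA against mRNA. The tRNA share, mt-Tl2, mt-Ts2, mt-Tw and mt-Tn kept a positive direction throughout. For all but mt-Tn, every CTC library lay above every PT library, so leaving libraries out could hardly turn them. The log2 fold changes of mt-Nd1 (0.15 to 0.50), mt-Tc (0.17 to 1.06), mt-Te (0.34 to 2.62), mt-Th (0.25 to 0.89) and mt-Tp (0.056 to 0.42) also stayed positive when libraries were left out. With 3 libraries a group, exact tests could not go below 0.1, and tRNA values rest on few counts.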

Other observations

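The 2 rRNA genes did not keep a fixed ratio. There were 975, 705 and 482 mt-Rnr1 counts per 1000 mt-Rnr2 counts in the CTC libraries numbered 1, 2 and 3, against 673, 409 and 526 in the PT libraries. Within the mRNAs, mt-Nd4 had 231, 149 and 470.4 counts per 1000 mt-Nd1 counts in the CTC libraries, against 278, 181 and 525 in PT, and mt-Nd2 had 380.1, 434 and 675 in CTC and 649, 420.3 and 594 in PT. For mt-Nd4 the matched libraries ranked alike, lowest in replicate 2 and highest in replicate 3, while for mt-Nd2 they did not. These ratios were chosen after their values were seen.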
